A study of Mus musculus with 6 samples.

Results

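The neuronal cadherin genes Cdh2, Cdh4, Cdh6, Cdh7, Cdh8, Cdh9, Cdh10, Cdh11, Cdh12 and Cdh13 were examined in mouse hippocampus with and without a conditional knockout of Ctcf. They were taken by symbol, and all 10 were present among the 24421 genes of the count table and among the 14916 genes that passed the low-count filter and were tested. RNA sequencing covered 3 wild type libraries and 3 libraries of animals labelled CTCF cKO, all from hippocampus of the C57/Bl strain, and the series describes them as biological replicates. The labels used here give no Cre line, age or litter, so which cells lost Ctcf, and when, is not known from them. CTCF is a DNA-binding protein with zinc fingers that anchors loops of chromatin.

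Classical cadherins are calcium-dependent adhesion proteins of the cell surface. Their outer repeats bind cadherins on the facing cell, and their inner tail binds beta-catenin and p120-catenin, through which alpha-catenin connects the junction to actin. Type I cadherins (here Cdh2 and Cdh4) are broadly expressed, whereas type II cadherins (here Cdh6 to Cdh12) are expressed in combinations that differ between groups of neurons, and several are known at hippocampal synapses. Cdh13 (T-cadherin) has the outer repeats but no inner tail, and is held in the membrane by a glycolipid anchor.

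Among the 10 genes, 5 were higher in every cKO library than in every wild type library (Cdh2, Cdh6, Cdh8, Cdh10 and Cdh12), and the groups overlapped for the other 5. Over all tested genes, 27.0% did not overlap, 14.6% being higher and 12.4% lower. No cadherin of the 10 passed an adjusted p of 0.05 by the quasi-likelihood test of edgeR, in which 1.51% of genes passed (1.05% higher in cKO and 0.463% lower). The same 5 had an unadjusted p below 0.05 by edgeR, all higher in cKO, against 19.9% of all genes at that level, 11.1% higher and 8.81% lower. DESeq2 called Cdh2 and Cdh8 higher, with 3.54% of genes called higher and 6.0% in either direction. The authors' deposited table called the same pair, with 2.41% of genes higher and 4.06% in either direction. limma-voom called none of the 10 (5 at an unadjusted p below 0.05) and 1.33% of all genes. The median log2 fold change of the 10 was 0.19, beside -0.0042 over all tested genes.

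Sequences before an annotated start are shown for 3 of the 5 genes that were higher without overlap. They differ widely in base composition, and its part in the transcript levels was not tested. They are the 250 bases before an annotated start in RefSeq, GRCm38.p6, on the gene's own strand. The windows are chr8:99416472-99416721 (minus strand) for Cdh8, chr15:13173676-13173925 (minus strand) for Cdh6 and chr15:18820079-18820328 (plus strand) for Cdh10. All 3 lie inside the annotated span of their gene, so the start used is not the outermost one. Those spans are 99024471 to 99417666 for Cdh8, 13028699 to 13176407 for Cdh6 and 18818869 to 19016206 for Cdh10. Both strands were searched for the GC box GGGCGG, the E-box CACGTG and the TATA box TATAAA. Capitals mark GC boxes, overlapping matches included.
Cdh8: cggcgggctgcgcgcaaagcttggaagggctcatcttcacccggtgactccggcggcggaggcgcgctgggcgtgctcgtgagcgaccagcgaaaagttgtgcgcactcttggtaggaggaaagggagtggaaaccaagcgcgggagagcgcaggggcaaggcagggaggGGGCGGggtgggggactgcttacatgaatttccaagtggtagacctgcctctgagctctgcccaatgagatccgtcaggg
Cdh6: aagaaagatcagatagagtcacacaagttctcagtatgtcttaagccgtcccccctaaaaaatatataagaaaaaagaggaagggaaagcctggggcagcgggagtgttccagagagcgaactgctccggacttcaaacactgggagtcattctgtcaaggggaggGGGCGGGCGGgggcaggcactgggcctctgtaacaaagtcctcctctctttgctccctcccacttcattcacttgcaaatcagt
Cdh10: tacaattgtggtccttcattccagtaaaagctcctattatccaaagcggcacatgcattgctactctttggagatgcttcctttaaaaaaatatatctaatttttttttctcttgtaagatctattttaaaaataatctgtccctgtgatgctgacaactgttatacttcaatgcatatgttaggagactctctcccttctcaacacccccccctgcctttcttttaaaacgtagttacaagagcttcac
The Cdh8 window held 64.4% G and C and 20 CpG dinucleotides, the Cdh6 window 51.2% and 6, and the Cdh10 window 36.8% and 2. A window of Cdh12, also higher without overlap but not shown, held 46.8% and 7. The median over 32851 RefSeq promoter windows of the same length was 52.4% and 6. GC boxes were found in the Cdh8 and Cdh6 windows, as in 32.7% of all windows, and not in the Cdh10 window. The E-box and the TATA box were in none of these 3 windows, and in 6.02% and 12.4% of all windows. In the Cdh8 window, 80 bases also lie in an exon of the non-coding gene A330008L17Rik in GENCODE M21.

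Levels were compared between genes as CPM per kb of exon (CPM are scaled read counts as a rate of the library total, and the length is the union of annotated exons). In wild type, Cdh2 was highest at 8.62 ± 0.50 CPM per kb (SD, n = 3), followed by Cdh8 at 7.63 ± 0.64, Cdh9 at 6.75 ± 1.20 and Cdh11 at 6.18 ± 0.97. Each of these overlapped the next in its wild type range. Cdh10 (3.92 ± 0.25) lay below Cdh11 without overlap and overlapped Cdh13 (3.16 ± 0.93). Cdh4 (1.85 ± 0.25), Cdh12 (1.18 ± 0.13), Cdh7 (0.533 ± 0.039) and Cdh6 (0.321 ± 0.048) followed, each below the one before it without overlap. With the longest transcript as the length, Cdh10 moved to place 3, Cdh13 to place 5 and Cdh9 to place 6, so the order among these genes depends on the annotated length.

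The summed level of the 10 genes was 38.4, 39.6 and 42.4 CPM per kb in the wild type libraries, in order of replicate, and 44.9, 46.8 and 44.2 in the cKO libraries. All cKO sums lay above all wild type sums. The sum contains the genes that were higher without overlap, with Cdh2 and Cdh8 as its largest terms, so it is no separate result. Cdh2 made up 21.2% to 21.7% of the sum in wild type and 23.4% to 24.5% in cKO, and Cdh8 17.5% to 21.2% in wild type and 22.5% to 24.0% in cKO. Type II genes together made up 63.7% to 67.5% in wild type and 66.1% to 68.4% in cKO, so their share overlapped between the genotypes. In bulk tissue, a change in the number of cells of a type and a change in RNA per cell cannot be told apart.

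**Figure D1:**
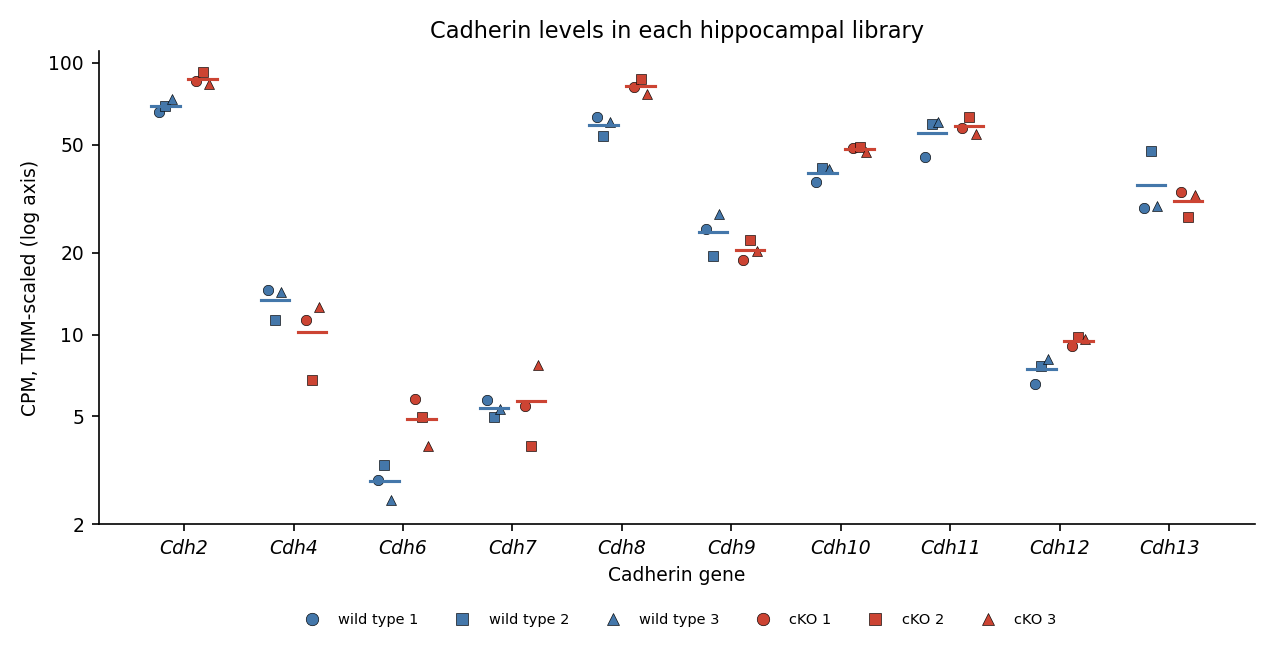
Level of each cadherin gene in the 6 libraries, in TMM-scaled CPM on a log axis; blue symbols are wild type and red symbols cKO, the symbol shape gives the replicate, and lines are means of 3 libraries. Cdh2, Cdh6, Cdh8, Cdh10 and Cdh12 have all red symbols above all blue ones, and Cdh13 has 1 wild type library (replicate 2, 47.6 CPM) far above the rest.

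Of the type I genes, Cdh2 encodes N-cadherin, the main cadherin of neuronal junctions and of excitatory synapses. Its level was 65.6, 69.3 and 73.6 CPM in the wild type libraries and 85.6, 92.4 and 83.3 CPM in the cKO libraries, here and throughout in order of replicate. The lowest cKO library was thus above the highest wild type library. The fold was 1.25 (95% interval 1.10 to 1.42; log2 fold change 0.32, SE 0.08, edgeR adjusted p = 0.0907). DESeq2 gave an adjusted p of 0.0323, and the authors' deposited table gave 0.0428 with a log2 fold change of 0.32. Cdh2 lies on chromosome 18 (16588877 to 16809246, GRCm38.p6).

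Cdh4 encodes R-cadherin, first described in retina. It had 14.6, 11.3 and 14.3 CPM in the wild type libraries and 11.4, 6.82 and 12.6 CPM in the cKO libraries, with the lowest value in cKO replicate 2. The groups overlapped, because cKO replicates 1 and 3 exceeded wild type replicate 2. The log2 fold change was -0.38 (SE 0.23, edgeR adjusted p = 0.398), and its 95% interval for the fold, 0.530 to 1.12, includes both a lower and a slightly higher level. It was -0.16 without cKO replicate 2 and -0.99 with the level of striatal markers, described with the other marker lists, as a covariate. In the same tissue Cdh2 and Cdh4 therefore had log2 fold changes of opposite sign, a difference between them that was not tested.

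Among the type II genes, Cdh8 had the smallest p of all 10. It marks subsets of neurons in cortex, striatum and thalamus, and lies on chromosome 8 (99024471 to 99417666). It had 63.2, 53.6 and 60.4 CPM in the wild type libraries and 81.6, 87.0 and 76.8 CPM in the cKO libraries. Every cKO library exceeded the highest wild type library, replicate 1. The fold was 1.38 (log2 fold change 0.47, 95% interval 0.26 to 0.68, SE 0.09, edgeR adjusted p = 0.0535), just outside the threshold. The adjusted p was 0.00153 by DESeq2 and 0.0546 by limma-voom, and the authors' deposited table gave 0.00205. Without the low-count filter, edgeR gave an adjusted p of 0.0489.

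Cdh10, Cdh6 and Cdh9 are known together from mouse synapses of the CA1 and CA3 fields. Cdh10 had 36.5, 41.0 and 40.7 CPM in the wild type libraries and 48.4, 49.2 and 47.0 CPM in the cKO libraries. The cKO libraries lay close together and above all wild type libraries, at a fold of 1.22 (95% interval 1.08 to 1.38; log2 fold change 0.29, SE 0.08, edgeR adjusted p = 0.112). Cdh6, the lowest of the 10 per length, had 2.91, 3.31 and 2.46 CPM in the wild type libraries, from 44 to 52 counts, and 5.77, 4.97 and 3.88 CPM in the cKO libraries, from 78 to 93 counts. It had the largest log2 fold change of the 10 (0.75, SE 0.22, edgeR adjusted p = 0.138), and its interval for the fold was wide, 1.18 to 2.39. The cKO values did not overlap the wild type values, but spread from 3.88 in replicate 3 to 5.77 in replicate 1.

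Cdh9, a cadherin of the mossy fibre synapse that dentate granule cells make on CA3 neurons, had 24.4, 19.4 and 27.8 CPM in the wild type libraries and 18.9, 22.2 and 20.2 CPM in the cKO libraries. Wild type replicate 2 lay inside the cKO range, and the other wild type libraries lay above it. The log2 fold change was -0.23 (SE 0.14, edgeR adjusted p = 0.417), and it was -0.098 without wild type replicate 3 and -0.36 without wild type replicate 2. Wild type replicate 2 also had the lowest summed level of 5 dentate gyrus markers (Prox1, Dsp, C1ql2, Stxbp6 and Lct), 95.1 CPM against 378 and 384 CPM in the other wild type libraries and 265 to 302 CPM in the cKO libraries. Between genotypes these markers did not go one way, as 3 had positive and 2 negative log2 fold changes. Without that library Cdh9 and Cdh4 were lower in cKO without overlap, as were 17.2% of all tested genes. The part of dentate content in the level of Cdh9 was not tested.

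Cdh12, which encodes a brain cadherin, had 6.55, 7.65 and 8.14 CPM in the wild type libraries and 9.06, 9.81 and 9.65 CPM in the cKO libraries. All cKO libraries were higher, at a fold of 1.27 (95% interval 1.03 to 1.58; log2 fold change 0.35, SE 0.13, edgeR adjusted p = 0.207). Cdh11, found in neurons and in mesenchymal cells, had 45.1, 59.5 and 60.6 CPM in the wild type libraries and 57.4, 63.3 and 54.8 CPM in the cKO libraries. The groups overlapped, and wild type replicate 1 was the low value. Its log2 fold change was 0.085 (SE 0.13, edgeR adjusted p = 0.745), or -0.039 without wild type replicate 1. Adjusting for striatal marker level gave 0.46.

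Cdh7, a type II cadherin also known from neural crest, had 5.76, 4.97 and 5.32 CPM in the wild type libraries and 5.46, 3.89 and 7.71 CPM in the cKO libraries. The cKO libraries held both the lowest and the highest value of the 6. The log2 fold change was 0.10 (SE 0.25, edgeR adjusted p = 0.863) and turned to -0.20 without cKO replicate 3. Cdh13, the cadherin with the glycolipid anchor, had 29.2, 47.6 and 29.8 CPM in the wild type libraries and 33.6, 27.1 and 32.7 CPM in the cKO libraries. Wild type replicate 2 stood alone, and the log2 fold change of -0.19 (SE 0.20, edgeR adjusted p = 0.630) turned to 0.076 without it.

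**Figure D2:**
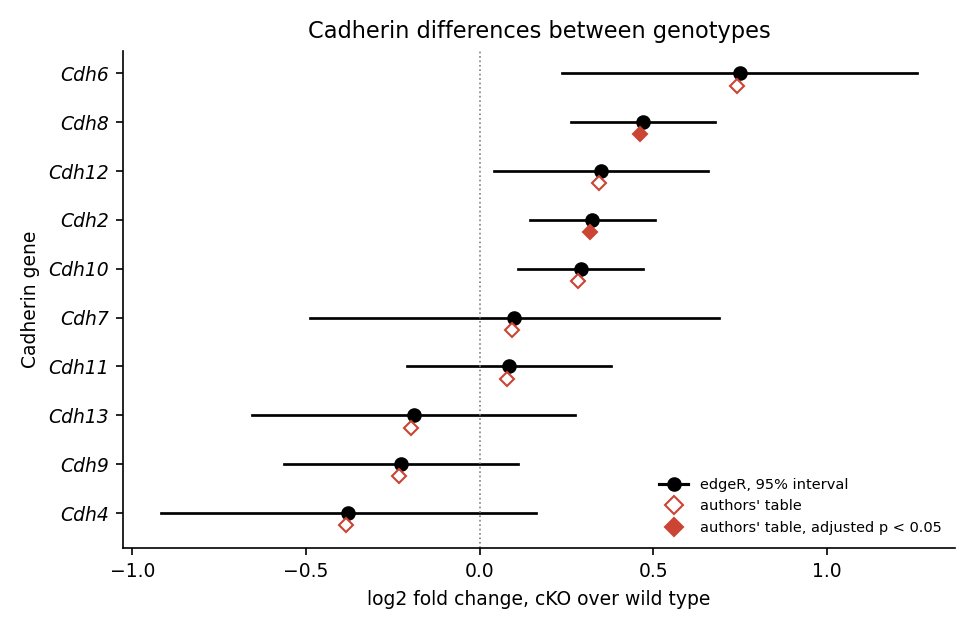
log2 fold change of each cadherin gene, cKO over wild type; black circles with lines are edgeR estimates with 95% intervals, and red diamonds are values of the authors' deposited table, filled where its adjusted p was below 0.05. The intervals of Cdh6, Cdh8, Cdh12, Cdh2 and Cdh10 lie above 0, and the filled diamonds are Cdh8 and Cdh2.

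Library totals were 14974750 to 23220455 counts, and single members had 44 to 1977 counts in a library. Ctcf itself fell from 66.6 ± 3.23 to 31.5 ± 6.42 CPM (SD, n = 3 each; log2 fold change -1.08, edgeR adjusted p = 0.0264). Each list of CA1, CA3 and CA2, and dentate gyrus markers was detected, and no marker of any list was at 0 in all libraries. The 8 striatal markers were all lower in cKO without overlap, with a summed level of 622 to 3016 CPM in the wild type libraries and 134 to 365 CPM in the cKO libraries. All 8 had an unadjusted p below 0.05 by edgeR and none an adjusted one. The 10 choroid plexus and ependyma markers all had negative log2 fold changes, and their summed level was 6324 to 12419 CPM in the wild type libraries and 621 to 6980 CPM in the cKO libraries, lowest in cKO replicate 1. Oligodendrocyte markers summed to 12550 to 16612 CPM in the wild type libraries and 9429 to 12574 CPM in the cKO libraries, and excitatory neuron markers to 3940 to 4585 and 4200 to 6014 CPM.

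Striatal marker level therefore separated the genotypes in the same way as the 5 non-overlapping cadherins, in the opposite direction. With that level as a covariate in edgeR, the log2 fold changes were 0.43 for Cdh2, 0.32 for Cdh8, 0.43 for Cdh10, 0.72 for Cdh6 and 0.58 for Cdh12, with adjusted p of 0.453, 0.500, 0.453, 0.550 and 0.466. After omission of wild type replicate 2 with cKO replicate 1, the libraries with the highest and lowest striatal level, they were 0.33, 0.40, 0.32, 0.71 and 0.40. Cdh13 was highest in the library with the highest striatal level, wild type replicate 2. In cKO replicate 1, with the lowest striatal level, it had 33.6 CPM, above the 29.2 and 29.8 CPM of wild type replicates 1 and 3. A link between Cdh13 and striatal level was not tested. Excitatory neuron markers were lowest in wild type replicate 2 and cKO replicate 3 and overlapped between genotypes, and their part in the cadherin levels was not tested.

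**Figure D3:**
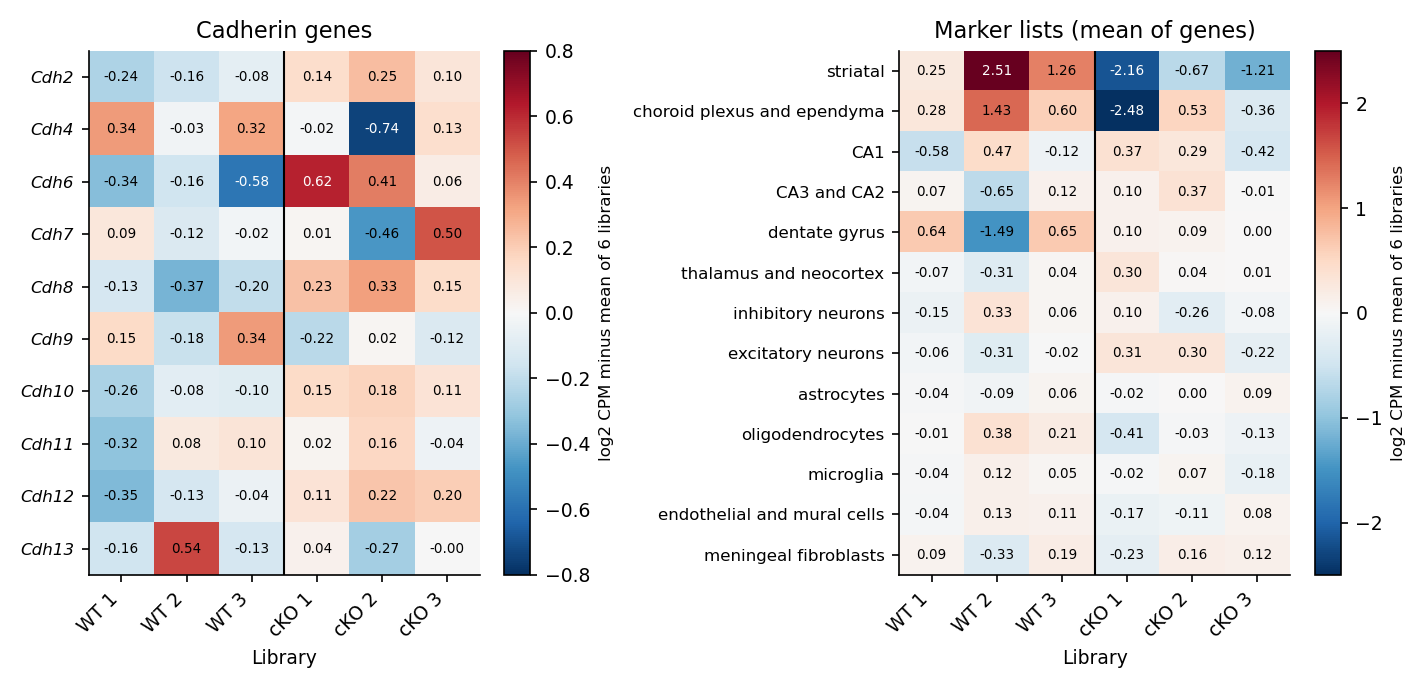
Each cell is a library's log2 CPM minus the mean of the 6 libraries, for the 10 cadherin genes (left) and as the mean over the genes of each marker list (right); the colour scales of the panels differ, and the line separates wild type from cKO. Cdh2, Cdh6, Cdh8, Cdh10 and Cdh12 are negative in wild type and positive in cKO, striatal markers are the reverse, and dentate gyrus markers are lowest in wild type replicate 2.

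The catenins and direct partners of cadherins did not shift one way. Of 15 such genes, all tested, 7 had positive and 8 negative log2 fold changes (median -0.045), and none passed by edgeR (3 higher and 1 lower at an unadjusted p below 0.05). Ctnna2, the alpha-catenin of neurons, had 138 ± 1.86 CPM in the wild type libraries and 165 ± 6.09 CPM in the cKO libraries (log2 fold change 0.26, edgeR adjusted p = 0.0953), without overlap, and DESeq2 called it higher. Vcl, the actin-binding protein vinculin, had 47.5 ± 1.92 and 56.9 ± 2.33 CPM (log2 fold change 0.26, edgeR adjusted p = 0.122). Ctnnb1, which encodes beta-catenin and was looked up after its value was seen, had 573 ± 45.6 and 601 ± 15.2 CPM with overlapping groups.

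Genes of cadherin processing and turnover had 7 positive and 8 negative log2 fold changes among 15 tested (median -0.087), with none called and 1 in each direction at an unadjusted p below 0.05. These were Cbll1, a ubiquitin ligase that acts on E-cadherin, at 20.3 ± 2.40 CPM in the wild type libraries and 25.2 ± 1.49 CPM in the cKO libraries, and Ptprf, a receptor tyrosine phosphatase, at 85.3 ± 13.4 and 68.5 ± 5.19 CPM. Of 10 other classical cadherins, 9 were tested, and 2 had positive and 7 negative log2 fold changes (median -0.24), with none called by edgeR and 1 higher at an unadjusted p below 0.05. That gene was Cdh19, with 10.7 ± 0.52 CPM in the wild type libraries and 14.1 ± 1.58 CPM in the cKO libraries (log2 fold change 0.41, edgeR adjusted p = 0.138). Cdh22 had 25.4 ± 8.56 and 15.5 ± 5.87 CPM (log2 fold change -0.70, edgeR adjusted p = 0.296), with overlapping groups.

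Of 17 other genes of the cadherin superfamily, 14 were tested, and 7 had positive and 7 negative log2 fold changes (median 0.016). At an unadjusted p below 0.05 by edgeR, 4 were higher and 0 lower, beside 11.1% and 8.81% of all tested genes. Without overlap, 5 were higher and 0 lower, beside 14.6% and 12.4% of all tested genes. Fat3, a giant atypical cadherin known for shaping the dendrites of amacrine cells in mouse retina, was called higher in cKO, at 143.0 ± 13.4 CPM against 95.6 ± 8.14 CPM (SD, n = 3 each; log2 fold change 0.58, SE 0.10, edgeR adjusted p = 0.0458). It was the 1 gene called by edgeR among the 4 lists, and it was no longer called without wild type replicate 1 or 3 or without any 1 cKO library. DESeq2 called Fat3, Cdhr1, Celsr3 and Ctnna2 in these lists, all higher.

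**Figure D4:**
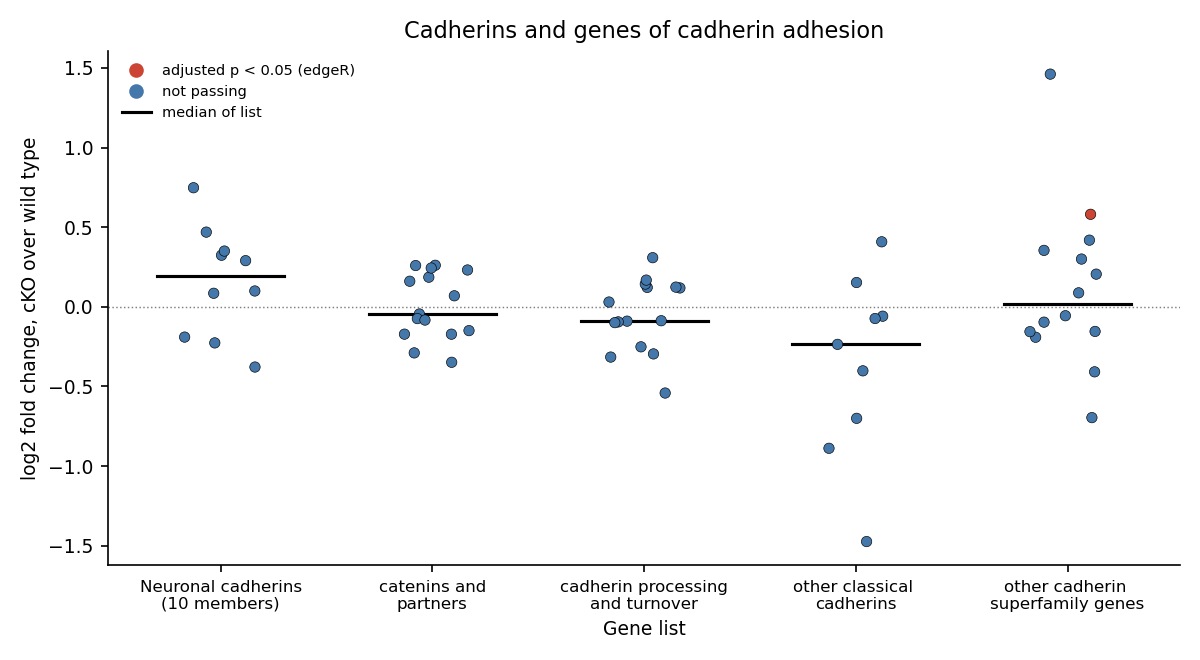
log2 fold change, cKO over wild type, of the 10 neuronal cadherins and of the tested genes in 4 lists of cadherin adhesion; each point is a gene, black lines are medians, and red marks the gene with an adjusted p below 0.05 by edgeR, Fat3. The median of the 10 is 0.19, and the medians of the other lists run from -0.24 to 0.016.

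The 10 genes share a large genomic size. In GRCm38.p6, Cdh4 lies on chromosome 2 (179442423 to 179899377), Cdh7 on chromosome 1 (109982237 to 110145272), and Cdh11 and Cdh13 on chromosome 8 (102632095 to 102785493 and 118140017 to 119324929). Annotated spans of the 10 ran from 129 kb (Cdh9) to 1150 kb (Cdh12) and 1185 kb (Cdh13). Of the tested genes with a position, 1642 had a span of at least 129 kb. These had a median log2 fold change of 0.082, and 22.0% of them were higher in cKO without overlap, beside a median of -0.012 and 13.7% among the 13235 shorter genes. The median of the 10 cadherins, which are among those 1642, was 0.19. The longest, Cdh12 and Cdh13, had log2 fold changes of opposite sign (0.35 and -0.19). The value of Cdh13 turned to 0.076 without wild type replicate 2.

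**Figure D5:**
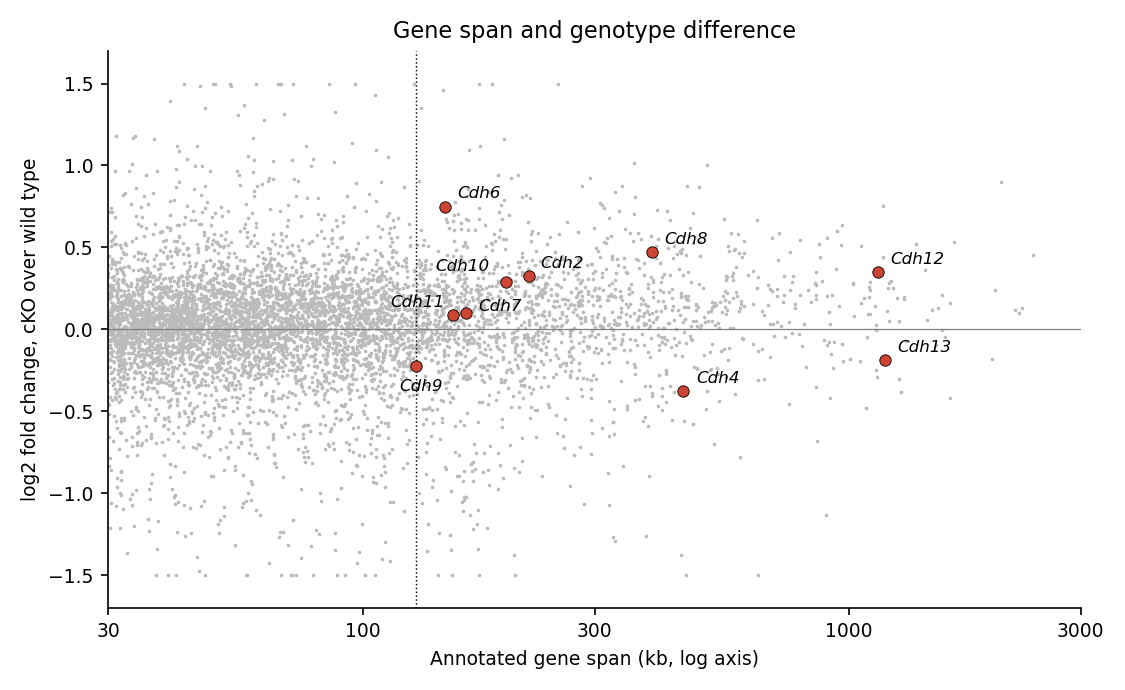
Annotated gene span (kb, log axis) against log2 fold change, cKO over wild type, for tested genes with a span of at least 30 kb (grey; values beyond 1.5 in either direction are drawn at 1.5) and the 10 cadherins (red); the dotted line marks the span of the shortest cadherin, Cdh9. The cadherins lie on both sides of 0 among the long genes.

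Several of the genes are each other's nearest tested neighbour. On chromosome 15, Cdh6, Cdh9, Cdh10 and Cdh12 occupy a stretch of 8.57 Mb (13028699 to 21598421) in which the only other tested gene was Acot10, which lies within Cdh12. Along this stretch the log2 fold changes were 0.75, -0.23, 0.29 and 0.35. The estimate for Cdh9 thus differed in sign from those on either side, at gaps of 3552 kb to Cdh6 and 1962 kb to Cdh10. The groups overlapped for Cdh9 (edgeR adjusted p = 0.417), and the difference in sign was not tested. Cdh18, the next tested gene after Cdh12, had a log2 fold change of -0.24 (edgeR adjusted p = 0.672). Acot10, a thioesterase gene, had 6.42 ± 1.07 CPM in the wild type libraries and 7.63 ± 0.50 CPM in the cKO libraries, with overlapping groups.

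On chromosome 8, Cdh8 and Cdh11 are 3214 kb apart with no tested gene between them, and had log2 fold changes of 0.47 and 0.085. The next tested gene on the other side of Cdh8, Got2, an aspartate aminotransferase, lies 3136 kb away and had 97.8 ± 3.94 CPM in the wild type libraries and 81.5 ± 5.75 CPM in the cKO libraries (log2 fold change -0.26, edgeR adjusted p = 0.142). Beyond Cdh11 comes Cdh5, the cadherin of endothelial cells (log2 fold change -0.059). Next to Cdh2, at 7.16 kb, lies Gm15328, which had 2.42 ± 0.18 and 3.54 ± 0.86 CPM (log2 fold change 0.55, edgeR adjusted p = 0.244), higher without overlap. Next to Cdh7, at 743 kb, lies Cdh19.

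The other neighbours had log2 fold changes of 0.44 for Chst9 beside Cdh2, -0.89 for Cdh26 and -0.040 for Taf4a beside Cdh4, 0.083 for Drosha beside Cdh6, -0.72 for Serpinb8 beside Cdh7, and -0.048 for Mphosph6 and -0.11 for Hsbp1 beside Cdh13. In all, and apart from Acot10 within Cdh12, 12 distinct neighbours were not among the 10. Of these, 4 had positive log2 fold changes (median -0.053), as did 49.2% of all tested genes. Without overlap, 2 were higher and 2 lower, beside 14.6% and 12.4% of all tested genes. None was called by edgeR, beside 1.51% of all tested genes. An unadjusted p below 0.05 by edgeR was found for 3 (Gm15328, Cdh19 and Got2), beside 19.9% of all tested genes. Cdh8 shares 23 exon bases with Gm15679 on the opposite strand, Cdh9 shares 224 with Gm49127 on the opposite strand, and Cdh12 shares 198 with Gm49685 on the same strand. Of these genes only Gm15679 is in the count table. Whether reads were counted by strand is not stated in the labels.

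Among the genes whose log2 CPM followed Cdh8 most closely over the 6 libraries were Jmjd1c (Pearson r = 0.995) and Tor1b (0.994), of 14253 genes of at least 1 CPM. For Cdh2 they were Krr1 (r = 0.998), Sgcb (0.996) and Kdm5d (0.995). For Cdh10 they were Gpr155 (r = 0.998), Ythdc2 (0.995) and Rps6ka3 (0.995). These values describe 6 libraries that share the genotype split, and with so many genes searched such values carry no test.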

How the data were processed

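RNA was sequenced from 3 wild type and 3 CTCF cKO hippocampus samples. The authors deposited a table of raw counts by gene symbol, per the file headers, together with normalised counts, a signal found to be the count divided by 1 size factor per library. The same deposited table holds the authors' own comparison, with a log2 ratio of cKO to wild type, its p-value and the adjusted one. Tools listed in the submitters' processing notes are DESeq2 1.6.3, HTSeq 0.6.1p1, TopHat2 2.0.10 and cutadapt, with the build mm10 and no order or settings. For the annotation behind the counts the labels give nothing.

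Counts of the whole table were tested with edgeR 4.0.16 (R 4.3.3), quasi-likelihood, after its expression filter (minimum count 10) and TMM scaling, with Benjamini-Hochberg adjustment over 14916 genes and a threshold of 0.05. SE values were derived from the log2 fold change and its F value. CPM are counts scaled by TMM library size. Alternatives were DESeq2 1.42.0, limma-voom (limma 3.58.1), other scalings and filters, the replicate number as a block, marker levels as covariates, and libraries left out. On simulated counts with known changes, edgeR, limma-voom and DESeq2 all made more false calls than the nominal share, DESeq2 the most, and edgeR missed most of the smallest of these changes. The counts were drawn with dispersions that edgeR had estimated. The smallest change was larger than the folds of Cdh2, Cdh8, Cdh10 and Cdh12, so the simulation does not settle which tool is right for these genes. Positions came from RefSeq (GRCm38.p6, matched by symbol or synonym for 24299 rows) and exon lengths from GENCODE M21, both on the assembly also called mm10. Nothing in the labels says that samples came from separate litters, so p-values measure the spread between these samples.

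The 10 genes and the gene lists were chosen with earlier results of these data known. Named beside the 10 were, in each list, the called genes or else the 2 with the smallest p, the nearest tested gene on each side of each cadherin, and the 3 genes most correlated with each of the 3 cadherins of smallest p, of which 1 is not reported here. Others are stated as chosen after their values were seen, or complete a count. Of the marker lists, those with no value printed in the text are shown by library in the plot of marker levels.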

Additional observations from a re-analysis of the deposited data

How the results depend on the processing

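Over 16 alternatives, 150 of 160 log2 fold changes of the 10 genes kept their direction and their side of the threshold, 3 newly passed and 7 changed sign, all of the latter in Cdh7, Cdh11 and Cdh13, which did not pass in any. The number of cadherins called was 2 with DESeq2 (Cdh2 and Cdh8, log2 fold changes 0.32 and 0.46), 1 without the low-count filter (Cdh8, 0.47) and 0 in every other alternative. In those others, 3 to 6 cadherins had an unadjusted p below 0.05. With the striatal covariate 3 cadherins did, beside 1613 of the 14916 tested genes. With the choroid plexus covariate 5 did, beside 1607 of 14916, and with the replicate block 6 did, beside 3573 of 14916. The log2 fold change ranged from 0.28 to 0.43 for Cdh2, 0.32 to 0.52 for Cdh8, 0.24 to 0.43 for Cdh10, 0.61 to 0.89 for Cdh6, 0.27 to 0.58 for Cdh12, -0.99 to -0.16 for Cdh4 and -0.38 to -0.098 for Cdh9. With 1 library left out, Cdh11 ranged from -0.039 (without wild type replicate 1) to 0.16 and Cdh13 from -0.31 to 0.076 (without wild type replicate 2). With the striatal covariate Cdh11 was 0.46. Cdh13 was 0.31 with that covariate and 0.020 with wild type replicate 2 and cKO replicate 1 both left out. Cdh7 was -0.20 without cKO replicate 3, -0.21 with the striatal and -0.015 with the choroid plexus covariate. The cause was not tested.

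Chosen after seeing the data, the counts without overlap were 5 cadherins higher and 0 lower with the deposited normalised counts. With that scaling, 14.1% of all tested genes were higher and 12.9% lower without overlap. Leaving out libraries can only keep or add genes without overlap. With 1 left out, 0 to 2 cadherins were lower without overlap, as were 16.7% to 19.3% of all tested genes, and with both left out 2 were, as were 23.3%.

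Over all tested genes, 225 were called (69.3% higher), against 876 with DESeq2 (59.0% higher), 12 to 147 with 1 library left out, 111 with both of those libraries left out, 5 with the choroid plexus covariate and 0 with the striatal covariate (1613 at an unadjusted p below 0.05). Among the 4 lists edgeR called 1 gene, against 4 with DESeq2, 2 without the low-count filter, 0 to 2 with 1 library left out, and 0 with either covariate or without both libraries.

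With the replicate number as a block, 185 genes (57.8% higher) and 0 cadherins were called. Deviations of same-numbered samples from their group means correlated at 0.219, 0.425 and 0.0788. Wild type replicate 3 correlated about as well with cKO replicate 1 (0.0801), and cKO replicate 3 better with wild type replicate 1 (0.188). These values do not settle whether the numbers pair the samples. The labels name no batch, so the main fit used no block. With the block, Cdh4 had a log2 fold change of -0.41 (SE 0.14, edgeR adjusted p = 0.161). At 44 to 93 counts, Cdh6 had the widest counting error of the 10.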
